A study of Mus musculus with 12 samples.

Results

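The genes described are 8 enzymes that make the lipids of myelin, the membrane that oligodendrocytes wrap around axons: Fa2h, Ugt8a, Gal3st1, Aspa, Cers2, Elovl1, Elovl5 and Scd2. They were chosen by name, with earlier results of these data known. They were mapped to Ensembl gene IDs through the GENCODE M21 annotation, and all 8 were found among the 48709 gene IDs of each library. RNA came from the dissected CA1 field of the mouse hippocampus. In 6 libraries the mice had a ligated coronary artery, a surgical model of myocardial infarction (MI), and in 6 libraries they had the same surgery without ligation (Sham). The labels used here give no strain, age, sex or time after surgery, and nothing says that each library is a separate mouse, so the p-values speak only of how these libraries spread, which may be technical. Polyadenylated RNA was read as single-end reads, and the comparison addresses which transcripts of the hippocampus differ after heart injury.

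Myelin is richer in glycolipids than other cell membranes. Its typical lipids are galactosylceramide and sulfatide, built on a ceramide whose fatty acid is very long and often hydroxylated. FA2H adds the hydroxyl group, UGT8 transfers galactose to the ceramide, and GAL3ST1 sulfates the product. CERS2 makes ceramide from very long acyl chains that ELOVL1 helps to extend, ELOVL5 lengthens polyunsaturated fatty acids, SCD2 puts the first double bond into saturated fatty acids, and ASPA, an enzyme of oligodendrocytes, splits N-acetylaspartate and so frees acetate for lipid synthesis.

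Fa2h, Ugt8a, Gal3st1, Aspa and Cers2 averaged 1.14- to 1.41-fold more in MI than in Sham libraries, while Elovl1, Elovl5 and Scd2 averaged 1.01- to 1.06-fold more. None of the 8 passed the threshold of an adjusted p of 0.05, and none of the 16829 genes tested did. The libraries fall into 2 sets by Y-linked and Xist counts, and for Fa2h and Ugt8a the difference between MI and Sham was larger in the set with Y-linked counts by DESeq2's test of the difference, though not by edgeR's. The structural genes of the myelin sheath, summed, also differed more between MI and Sham in that set.

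Of the 8 genes, 6 had a promoter in the RefSeq table used here, running from 250 bases before to 50 bases after the annotated start (build GRCm38.p6). Those of Ugt8a, Gal3st1 and Aspa are shown as those of the genes of galactolipid synthesis and acetate supply that have an entry. Gal3st1 has 3 entries, of which the first is printed. The motifs searched, on both strands, were a motif of Sox factors in the form ACAAAG, the same motif in the form ACAATG, the E-box of helix-loop-helix factors, spelled CANNTG, the box spelled CCAAT and the box spelled TATAAA. Capitals mark the matches.
Ugt8a, chr3:125938603-125938902, minus strand: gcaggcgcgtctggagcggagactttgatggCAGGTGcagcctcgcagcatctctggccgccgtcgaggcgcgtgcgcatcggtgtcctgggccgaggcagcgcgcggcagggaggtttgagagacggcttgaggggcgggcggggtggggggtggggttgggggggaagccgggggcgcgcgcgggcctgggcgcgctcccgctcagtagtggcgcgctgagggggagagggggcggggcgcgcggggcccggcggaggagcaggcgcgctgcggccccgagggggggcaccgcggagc
Gal3st1, chr11:3983386-3983685, plus strand: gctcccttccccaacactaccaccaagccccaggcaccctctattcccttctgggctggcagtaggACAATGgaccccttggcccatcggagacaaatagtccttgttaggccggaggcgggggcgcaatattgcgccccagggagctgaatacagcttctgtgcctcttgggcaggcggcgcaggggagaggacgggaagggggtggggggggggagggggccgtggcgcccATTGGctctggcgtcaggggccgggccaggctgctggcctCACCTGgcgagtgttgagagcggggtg
Aspa, chr11:73324588-73324887, minus strand: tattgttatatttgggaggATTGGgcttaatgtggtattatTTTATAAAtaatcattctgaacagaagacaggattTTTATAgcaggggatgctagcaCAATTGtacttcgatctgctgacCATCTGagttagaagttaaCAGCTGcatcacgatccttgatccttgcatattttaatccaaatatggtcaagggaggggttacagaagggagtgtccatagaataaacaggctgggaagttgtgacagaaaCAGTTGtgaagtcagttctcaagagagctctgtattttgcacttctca

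The Ugt8a promoter had a GC content of 78.33% with 40 CpG dinucleotides, the printed Gal3st1 promoter 67% with 14, and the Aspa promoter 39% with 2, against medians of 52.67% and 7 over all 32851 promoters of the table. The Ugt8a window held 1 E-box, at -219 from the start. The Gal3st1 window held ACAATG at -184, CCAAT on the opposite strand at -17 and an E-box at 24. The other 2 Gal3st1 entries had GC contents of 68% with 17 CpG and 56% with 2, and the last of these held no ACAATG. The Aspa window held 4 E-boxes, at -152, -129, -110 and 3, and CCAAT on the opposite strand at -231. It also held 3 matches to TATAAA, at -209, -207 and -174, of which the first 2 overlap on opposite strands. Among all promoters of this length, 72.31% held an E-box, 37.41% CCAAT, 13.62% TATAAA, 12.57% ACAATG and 18.71% ACAAAG, so an E-box in a window of this size is the common case. Cers2, Elovl1 and Elovl5 also had entries, and their windows held E-boxes as well.

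The deposited values are whole-number read counts per gene. Library totals ran from 20764133 to 35643127 counts, and levels are given here as CPM, read counts scaled to a common depth by the library size after TMM scaling, which corrects for composition. Counting precision was high for Scd2, with 27285 to 51194 counts a library, and lowest for Gal3st1, with 163 to 316. The labels give no batch or sex, but the counts separate the libraries into a set with Y-linked counts (MI 1, 3 and 4; Sham 1, 2 and 3) and a set with Xist (MI 2, 5 and 6; Sham 4, 5 and 6). Sham 6 stood apart in dentate granule neuron markers, which summed to 744 CPM there against at most 279 CPM in any other library. Fibroblast and meninges markers were highest in Sham 1 (231 CPM), with Sham 3 close to it (219 CPM). The comparison of MI with Sham was also made without Sham 1 and Sham 6: 0 of the 8 enzymes passed, and their median log2 fold change was 0.23. In tissue RNA, fewer cells of a type and less RNA per cell cannot be told apart.

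Per kilobase of exon (RPKM), Scd2 was by far the most abundant of the 8 transcripts, at 274 ± 21.1 RPKM (mean ± SD over all 12 libraries). Elovl5 followed at 20.1 ± 1.59 RPKM, Cers2 at 16.97 ± 1.58 RPKM, Ugt8a at 11.6 ± 2.27 RPKM and Fa2h at 10.8 ± 2.65 RPKM. Elovl1 stood at 5.93 ± 0.600 RPKM, Gal3st1 at 4.49 ± 0.829 RPKM and Aspa at 2.80 ± 0.554 RPKM. The ranges over libraries were apart between Scd2 and Elovl5 and between Cers2 and Ugt8a, and they overlapped for the other neighbours. Within libraries the order was firmer: each gene was above the next in 12 of 12 libraries, except Elovl5 over Cers2 in 11 and Ugt8a over Fa2h in 9.

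**Figure D1:**
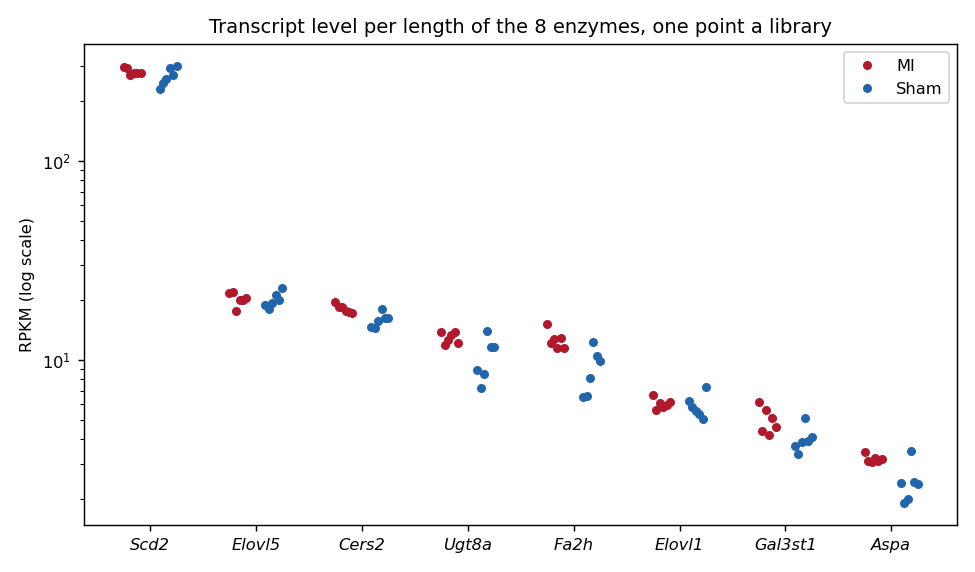
Level per length (RPKM, log axis) of the 8 enzyme transcripts, ordered by their mean, with 1 point for each of 6 MI (red, left) and 6 Sham (blue, right) libraries. Scd2 lies at 230 RPKM or more in every library, and the lowest gene, Aspa, at 3.49 RPKM or less.

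Fa2h, the fatty acid 2-hydroxylase (chr8:111345135-111393824, minus strand, mm10, ENSMUSG00000033579), had a lowest level of 34.5, a median of 37.4 and a highest of 45.7 CPM in MI libraries, against 19.5, 27.0 and 37.1 CPM in Sham libraries. The groups overlapped through 1 Sham library, Sham 4, while the other 5 Sham libraries lay below every MI library. The mean was 38.1 ± 4.15 CPM in MI and 27.0 ± 6.99 CPM in Sham (SD, n = 6 each). The log2 fold change was 0.49 (SE 0.15), with an adjusted p of 0.597 in edgeR's quasi-likelihood test (unadjusted p = 0.00598).

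Ugt8a, the ceramide galactosyltransferase (chr3:125865271-125938619, minus strand, ENSMUSG00000032854), had 53.5, 58.9 and 62.8 CPM as lowest, median and highest in MI, against 32.6, 46.3 and 63.4 CPM in Sham. The highest library of all was again Sham 4, and the other 5 Sham libraries lay below every MI library. The log2 fold change was 0.33 (SE 0.14), with an adjusted p of 0.6248 in edgeR's test. Gal3st1, the cerebroside sulfotransferase (chr11:3983636-3999326, plus strand, ENSMUSG00000049721), had 8.54, 9.85 and 12.5 CPM in MI, against 6.86, 7.90 and 10.4 CPM in Sham. Its log2 fold change was 0.32 (SE 0.12), with an adjusted p of 0.597, and Sham 4 was again the Sham library that reached into the MI range.

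Aspa, aspartoacylase (chr11:73304992-73329596, minus strand, ENSMUSG00000020774), had 18.1, 18.7 and 20.5 CPM as lowest, median and highest in MI, against 11.3, 14.2 and 20.8 CPM in Sham. The coefficient of variation was 4.55% over MI and 23.2% over Sham libraries. Fa2h and Ugt8a had the same inequality, with 10.9% in MI against 25.9% in Sham for Fa2h and 6.78% in MI against 24.5% in Sham for Ugt8a, while Gal3st1 varied alike in both groups (15.2% in MI and 14.8% in Sham). These spreads were not tested. The log2 fold change of Aspa was 0.39 (SE 0.12), with an adjusted p of 0.597 in edgeR's test.

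Cers2, the very long chain ceramide synthase (chr3:95314791-95323599, plus strand, ENSMUSG00000015714), had 63.3, 66.1 and 72.0 CPM in MI, against 53.3, 58.4 and 66.3 CPM in Sham. In Sham, 5 of 6 libraries lay below every MI library, and the exception was Sham 4. The log2 fold change was smaller than for the genes above, at 0.19 (SE 0.06), with an unadjusted p of 0.00506 and an adjusted p of 0.597 in edgeR's test. Part of its exons overlaps Setdb1 (75 bases) and the antisense gene 6330562C20Rik (144 bases) on the opposite strand, and whether counting used strand is not stated by the labels, so such reads may not be separable. Elovl1, the elongase of saturated very long chains (chr4:118428093-118432953, plus strand, ENSMUSG00000006390), had 15.2, 16.3 and 18.1 CPM in MI, against 13.7, 15.4 and 19.8 CPM in Sham. The MI values lay within the Sham range, and the log2 fold change was 0.04 (SE 0.08; edgeR adjusted p = 0.939).

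Elovl5, the polyunsaturated fatty acid elongase (chr9:77917364-77984519, plus strand, ENSMUSG00000032349), had 61.8, 71.3 and 77.2 CPM in MI, against 63.6, 69.2 and 80.5 CPM in Sham. The groups covered nearly the same range, with a log2 fold change of 0.02 (SE 0.07; edgeR adjusted p = 0.974), and the sign of so small a value changed with the libraries used. Scd2, the main brain stearoyl-CoA desaturase (chr19:44293674-44306864, plus strand, ENSMUSG00000025203), had 1469, 1515 and 1616 CPM in MI, against 1258, 1443 and 1643 CPM in Sham. Its log2 fold change was 0.08 (SE 0.07; edgeR adjusted p = 0.819), and Sham 6 held the highest value. Of the 50-base stretches of Scd2 exons, 3.97% also occur in the related genes Scd1, Scd3 and Scd4, and reads from those stretches cannot be given to 1 gene.

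**Figure D2:**
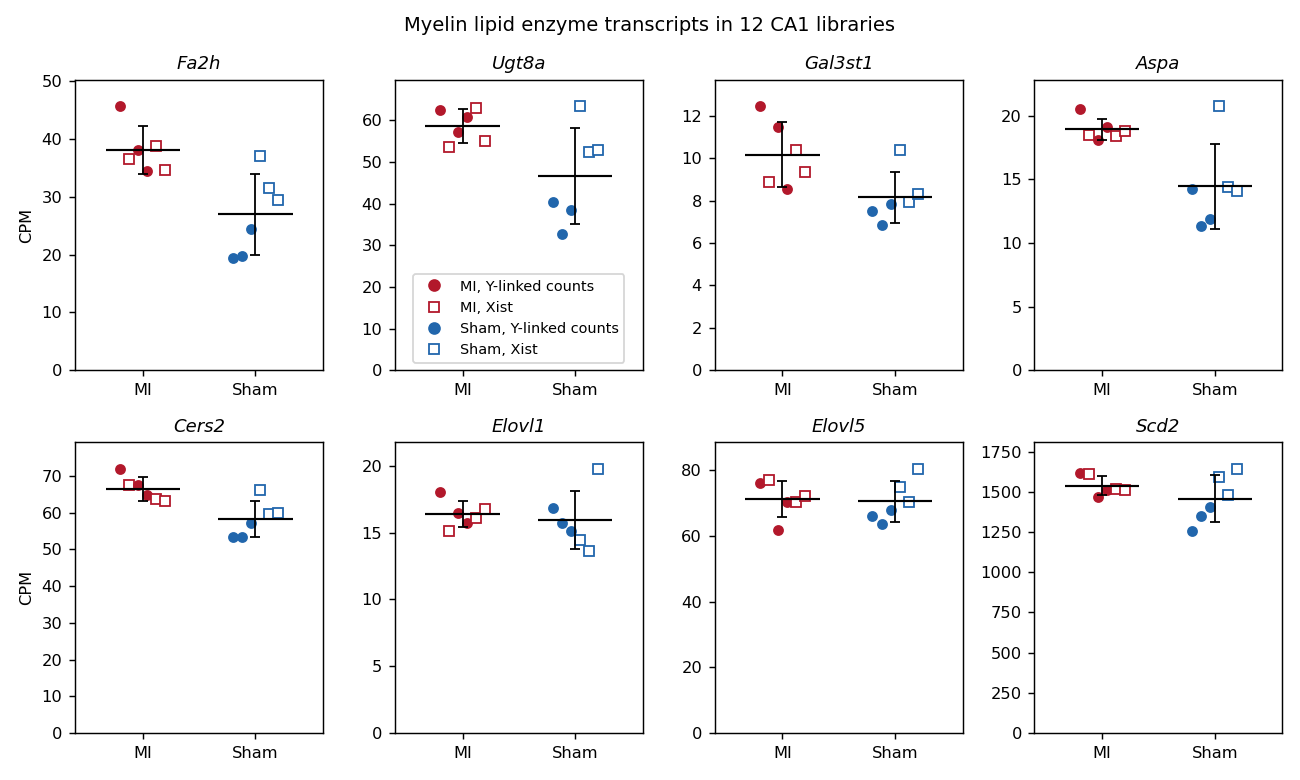
CPM of each enzyme in 6 MI (red, left) and 6 Sham (blue, right) libraries; filled circles are libraries with Y-linked counts, open squares libraries with Xist, bars the mean ± SD. For Fa2h the 3 filled Sham points lie at 19.5 to 24.4 CPM, below every MI point, while the open Sham points reach 37.1 CPM.

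For the 8 genes together, 0 of 8 passed the adjusted threshold, beside 0% of the 16829 genes tested. All 8 log2 fold changes were above 0, with a median of 0.25, against a median of -0.01 over all genes. At an unadjusted p of 0.05, 5 of 8 were higher in MI, where 3.95% of all genes were (665 higher and 605 lower). The 8 were chosen with earlier results of these data known, so this share and the median describe them and do not test the list. DESeq2 called 0.0951% of genes (16) and none of the 8, with adjusted p-values for the 8 from 0.199 (Fa2h) to 0.984 (Elovl5), and limma-voom called 0 genes. No member had every MI library above every Sham library, a pattern that 0.25% of genes had. Each library was also left out in turn. Sham 4, for 5 of these genes the only Sham library not below every MI library, is singled out after its values were seen. Without it, 0 of the 16895 genes tested passed. The lowest edgeR adjusted p of the 8 was then 0.0574, for Aspa, with a log2 fold change of 0.52.

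The authors' deposited tables of genes that differ between MI and Sham hold 542 genes as higher and 517 as lower. Of the 8 enzymes, Fa2h and Aspa are listed as higher in the authors' deposited table, and none as lower. For Fa2h the authors' deposited table gives a log2 fold change of 0.34 and an adjusted p of 0.0351, and for Aspa 0.32 and 0.0255. The deposited log2 values of Aspa in the authors' deposited table run from 9.52 to 9.79 in MI and from 9.13 to 9.62 in Sham, so that there too the Sham range reaches into that of MI. How these values were made is not stated by the labels or headers.

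The difference between MI and Sham was then computed in each library set. With Y-linked counts, Fa2h had 45.7, 38.2 and 34.5 CPM in MI 1, 3 and 4, against 19.5, 19.8 and 24.4 CPM in Sham 1, 2 and 3. With Xist, it had 36.5, 38.8 and 34.6 CPM in MI 2, 5 and 6, against 37.1, 31.5 and 29.5 CPM in Sham 4, 5 and 6. The MI means were near each other in both sets (39.5 and 36.6 CPM), and the Sham means were further apart (21.2 CPM with Y-linked counts and 32.7 CPM with Xist).

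Ugt8a showed the same layout. With Y-linked counts it had 62.6, 57.1 and 60.7 CPM in MI 1, 3 and 4, against 40.3, 32.6 and 38.5 CPM in Sham 1, 2 and 3. With Xist it had 53.5, 62.8 and 55.0 CPM in MI 2, 5 and 6, against 63.4, 52.3 and 52.8 CPM in Sham 4, 5 and 6, and these groups overlap. For Aspa the values with Y-linked counts were 20.5, 18.1 and 19.1 CPM in MI, against 14.2, 11.3 and 11.9 CPM in Sham, and with Xist 18.5, 18.4 and 18.8 CPM in MI, against 20.8, 14.4 and 14.1 CPM in Sham.

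Within the libraries with Y-linked counts, where 1.26% of 16777 genes passed edgeR's test, 3 of the 8 enzymes rose in MI. Ugt8a rose by a log2 fold change of 0.69 (SE 0.09, adjusted p = 0.0194, edgeR), Fa2h by 0.89 (SE 0.13, adjusted p = 0.0286, edgeR) and Aspa by 0.62 (SE 0.11, adjusted p = 0.0453, edgeR). Cers2 (0.31, adjusted p = 0.0624, edgeR) and Gal3st1 (0.54, adjusted p = 0.145, edgeR) did not pass. Every MI library was above every Sham library of this set for 6 of the 8 (Fa2h, Ugt8a, Gal3st1, Aspa, Cers2 and Scd2), where 10.9% of all genes had that pattern. These calls rest on 3 libraries a group: without MI 3, MI 4 or Sham 2 none of the 8 passed (edgeR adjusted p of Ugt8a 0.0883, 0.0769 and 0.0564). Without Sham 1, Ugt8a and Aspa passed and Fa2h had an adjusted p of 0.0744, and without MI 1 or Sham 3, Fa2h and Ugt8a passed and Aspa had 0.0662 and 0.0590 in edgeR's test.

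Within the libraries with Xist, 0 of 8 passed and 0% of 16975 genes did, with 216 genes at an unadjusted p of 0.05 and 0 of the 8 among them. The log2 fold changes ran from -0.04 (Elovl5) to 0.18 (Aspa), with 0.16 for Fa2h and 0.03 for Ugt8a. None of the 8 had every MI library above every Sham library of this set, as 2.88% of genes did.

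The difference between the 2 sets was tested as an interaction over all 12 libraries. For Fa2h the difference between MI and Sham was larger with Y-linked counts by 0.73 on the log2 scale (SE 0.17), with an adjusted p of 0.327 in edgeR and 0.0314 in DESeq2. For Ugt8a it was larger by 0.67 (SE 0.14), with an adjusted p of 0.234 in edgeR and 0.00933 in DESeq2. In edgeR none of the 8 passed, as 0.0119% of genes (2) did, and in DESeq2 these 2 enzymes did, beside 0.481% of genes. At an unadjusted p of 0.05, 4 of the 8 had the larger difference with Y-linked counts (Fa2h, Ugt8a, Aspa and Cers2), against 4.15% of all genes. Since the 8 were chosen with earlier results known, this share too is only a description. The call for Fa2h and Ugt8a depended on the tool, and the difference for Gal3st1 (0.45, SE 0.21) and Scd2 (0.22, SE 0.10) passed in neither.

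**Figure D3:**
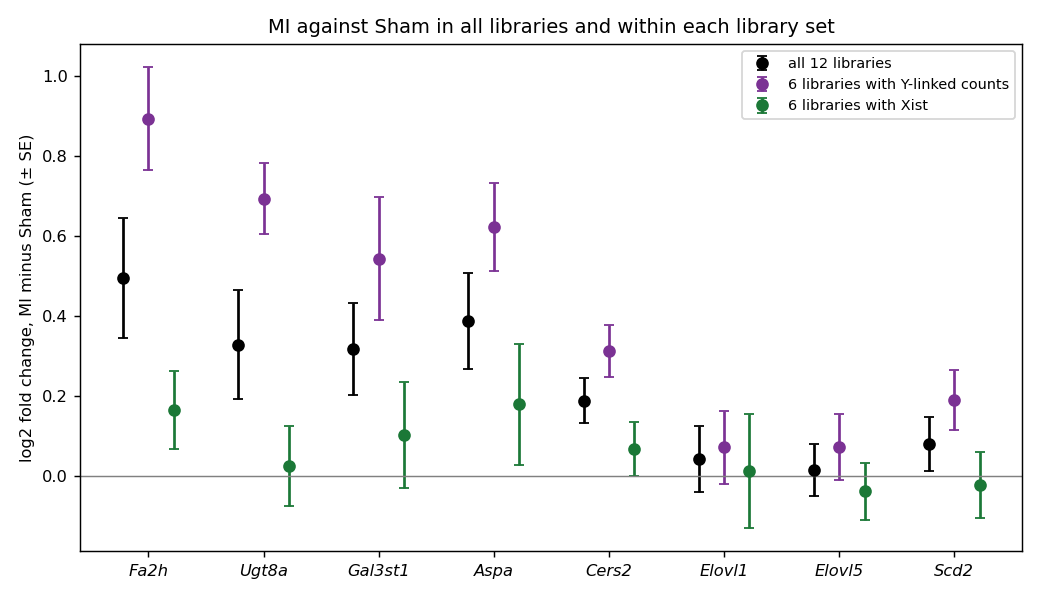
Log2 fold change, MI minus Sham, with its SE for each enzyme, in all 12 libraries (black), the 6 with Y-linked counts (purple) and the 6 with Xist (green). For Ugt8a the value is 0.69 with Y-linked counts and 0.03 with Xist, while for Elovl1 and Elovl5 the intervals of one SE overlap.

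Genes of the sheath itself were compared in the same way. The summed level of 9 markers of myelinating oligodendrocytes (Mbp, Mog, Mag, Mobp, Cldn11, Opalin, Mal, Cnp and Ermn) was 4342 ± 376 CPM in MI, against 2981 ± 898 CPM in Sham, with ranges of 3800.1 to 4796 CPM in MI and 1999 to 4083 CPM in Sham. With Y-linked counts the sum averaged 4455 CPM in MI and 2192 CPM in Sham, and with Xist 4229.9 CPM in MI and 3770.3 CPM in Sham. All 9 markers had a positive log2 fold change, with a median of 0.52, and 0 of 9 passed the adjusted threshold in all libraries, while 9 of 9 did with Y-linked counts alone. The authors' deposited table lists all 9 as higher in MI. The interaction with the library set passed for 0 of the 9 in edgeR and for 7 of the 9 in DESeq2. Mbp, a protein that compacts the sheath, averaged 2443 ± 204 CPM in MI and 1667 ± 496 CPM in Sham, and Mog, a glycoprotein of its outer surface, 61.3 ± 7.72 CPM in MI and 43.3 ± 12.8 CPM in Sham. All 9 were detected in every library.

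The part of the sheath markers in the enzyme values was not tested, but the ratio of the 2 was measured. The sheath sum is weighted to its most abundant gene, Mbp, which gave 2443 of 4342 CPM in MI. Single markers would give other ratios, since Ermn (log2 fold change 0.40) and Cnp (0.43) differed less than Fa2h (0.49). Per 1000 counts of the 9 sheath markers, Fa2h had 8.78 ± 0.818 counts in MI and 9.17 ± 0.749 counts in Sham, with ranges of 7.62 to 9.69 in MI and 7.87 to 9.94 in Sham. On that scale the groups overlapped almost wholly (log2 difference -0.06). Aspa had 4.38 in MI and 5.03 in Sham (log2 difference -0.18), Ugt8a 13.6 in MI and 15.9 in Sham (-0.23), and Gal3st1 2.35 in MI and 2.87 in Sham (-0.28). The remaining 4 had lower means in MI per sheath count, further from Sham than the first 4: Cers2 with 15.4 in MI and 20.8 in Sham (-0.40), Scd2 with 356 in MI and 516 in Sham (-0.51), Elovl1 with 3.80 in MI and 5.79 in Sham (-0.55), and Elovl5 with 16.5 in MI and 25.1 in Sham (-0.58). Each log2 difference is the gene's own less that of the sheath sum, so their order repeats that of the log2 fold changes. It does not show how closely a gene followed the sheath genes from library to library.

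**Figure D4:**
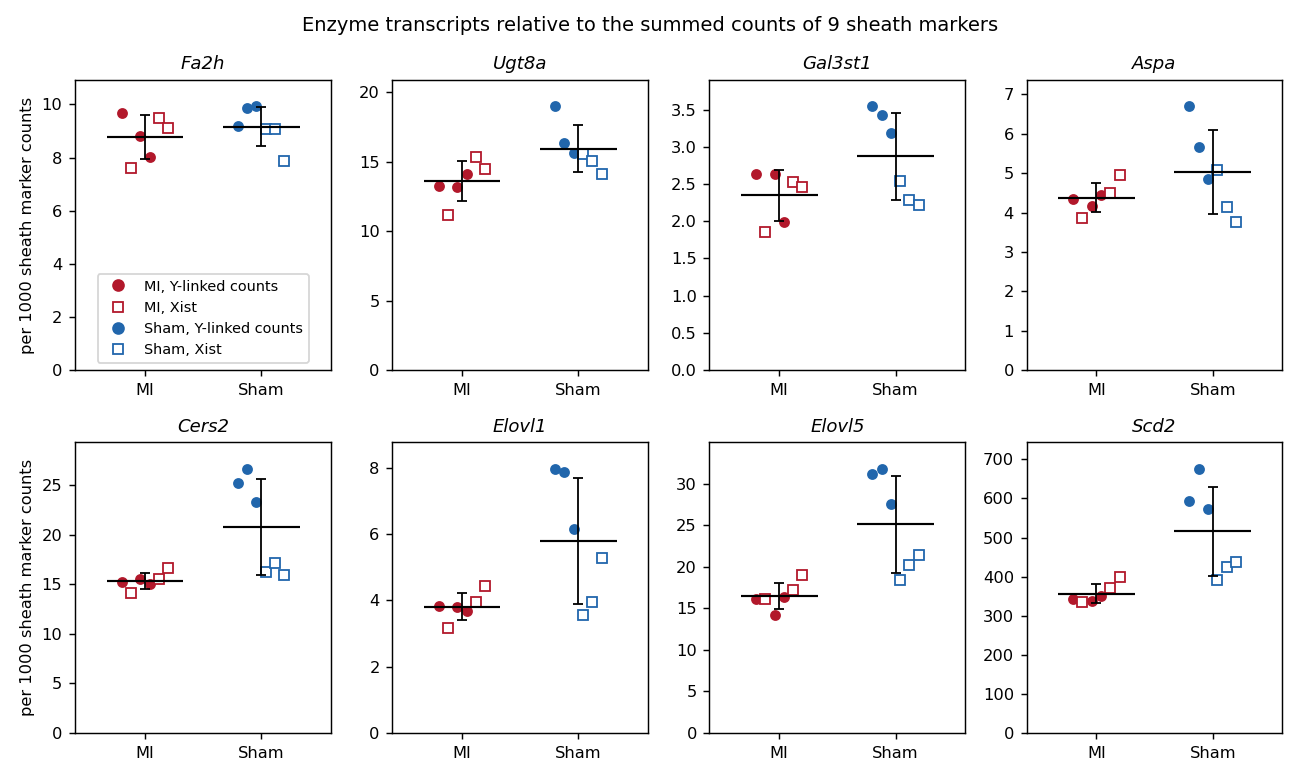
Counts of each enzyme per 1000 summed counts of 9 sheath markers in 6 MI (red, left) and 6 Sham (blue, right) libraries, with mean ± SD; filled circles are libraries with Y-linked counts, open squares those with Xist. Fa2h sits at 7.62 to 9.69 in MI and 7.87 to 9.94 in Sham, while for Elovl5 the Sham libraries with Y-linked counts lie at 27.6 to 31.8, above all others.

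Levels per length were also set against Ugt8a within each library. Fa2h per Ugt8a was 0.980 ± 0.0856 in MI and 0.872 ± 0.0798 in Sham, Gal3st1 per Ugt8a 0.386 ± 0.0507 in MI and 0.398 ± 0.0550 in Sham, and Aspa per Ugt8a 0.247 ± 0.0149 in MI and 0.239 ± 0.0275 in Sham. Each pair of ranges overlapped. Taking each library's deviation from its group mean of log2 CPM, Pearson's r over the 12 libraries was 0.93 for Fa2h with Cers2, 0.89 for Fa2h with Ugt8a, 0.86 for Ugt8a with Aspa and 0.84 for Elovl5 with Scd2. Elovl1 was the least alike, with r against the others from -0.12 (Aspa) to 0.27 (Elovl5). These correlations describe libraries that share depth and dissection, and they carry no p. The group means were not taken by library set, so differences between the 2 sets are part of these deviations. For Fa2h the Sham mean was 21.2 CPM with Y-linked counts and 32.7 CPM with Xist.

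Markers of other cells were compared in the same libraries. Oligodendrocyte precursor markers (6 genes) summed to 180 to 210 CPM in MI and 184 to 220 CPM in Sham, with 3 of 6 log2 fold changes positive and a median of 0.01. Pdgfra, the receptor that marks precursors, averaged 63.2 ± 4.25 CPM in MI and 67.2 ± 6.76 CPM in Sham. Markers of CA1 pyramidal neurons, such as Wfs1 and Fibcd1, summed to 893 to 1189 CPM in MI and 611 to 1365 CPM in Sham. Their log2 fold changes were positive for 4 of 5 genes (median 0.11). With Y-linked counts the sum averaged 1054 CPM in MI and 809 CPM in Sham, and with Xist 949.8 CPM in MI and 1031 CPM in Sham. Dentate granule neuron markers, such as Prox1 and Dsp, ran from 72.7 to 279 CPM in MI and from 87.8 to 744 CPM in Sham. All 5 dentate genes had negative log2 fold changes in all libraries (median -0.51), but 4 of 5 were positive with Y-linked counts (median 0.28). Their sum was still lower in MI with Y-linked counts, averaging 104 CPM in MI and 115 CPM in Sham. With Xist, the set in which Sham 6 lies, it averaged 216 CPM in MI and 348 CPM in Sham. Astrocyte markers, such as Aqp4 and Gja1, ran from 5395 to 6539 CPM in MI and from 5325 to 7356 CPM in Sham. Of their log2 fold changes, 2 of 6 were positive, with a median of -0.01. Aqp4 had -0.25 (SE 0.07, edgeR unadjusted p = 0.00476, adjusted p = 0.597), and Gja1 had -0.003.

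Fibroblast and meninges markers also had the opposite sign to the enzymes in all libraries. Their sum was 75.1 to 130 CPM in MI and 40.2 to 231 CPM in Sham, and 6 of 6 genes had negative log2 fold changes. With Y-linked counts the sum averaged 98.4 CPM in MI and 199 CPM in Sham, and with Xist, where 5 of 6 genes were positive, 119 CPM in MI and 93.7 CPM in Sham. The interaction with the library set was negative for 6 of 6 genes, opposite to the sheath markers. It passed for 0 of the 6 in edgeR and for 3 of the 6 in DESeq2. Col1a1, a fibrillar collagen chain, averaged 6.91 ± 1.51 CPM in MI and 12.1 ± 6.95 CPM in Sham. Fa2h, Ugt8a, Gal3st1, Cers2, Scd2 and the summed sheath markers were at their lowest in the 3 Sham libraries with Y-linked counts, and the part of the fibroblast and meninges markers in that was not tested. Microglia (222 to 261 CPM in MI, 208 to 283 CPM in Sham) and endothelium markers (187 to 213 CPM in MI, 173 to 207 CPM in Sham) overlapped between the groups. Log2 fold changes were positive for 3 of 5 microglia genes (median 0.01) and for 5 of 5 endothelium genes (median 0.07). Choroid plexus markers summed to 17.6 to 33.8 CPM in MI and 8.53 to 42.3 CPM in Sham, with 3 of 5 genes under a mean of 1 CPM. Only 3 choroid plexus genes were tested, and all 3 log2 fold changes were positive (median 0.14). With Y-linked counts the choroid plexus sum averaged 25.8 CPM in MI and 14.0 CPM in Sham, and with Xist 28.5 CPM in MI and 32.3 CPM in Sham. The part of the CA1 neuron, endothelium and choroid plexus markers in the enzyme values was not tested.

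Neighbouring lipid pathways were described with 7 lists of 78 genes in all. None of the 78 passed the adjusted threshold in all 12 libraries, the log2 fold change was above 0 for 44 and below 0 for 34, and the median was 0.01. At an unadjusted p of 0.05, 3 of the 78 were higher and 1 lower in MI, beside 665 higher (3.95%) and 605 lower of all 16829 genes. The synthesis of sphingoid bases and ceramide, without the member Cers2, had 5 positive and 9 negative values with a median of -0.03. Degs1, which desaturates dihydroceramide, averaged 71.6 ± 3.36 CPM in MI and 67.7 ± 4.10 CPM in Sham, and Ormdl3, a regulator of serine palmitoyltransferase, 43.1 ± 1.49 CPM in MI and 43.5 ± 1.87 CPM in Sham.

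The branches that compete for ceramide, to sphingomyelin and glucosylceramide, had 6 positive and 5 negative values with a median of 0.00. St3gal5, the GM3 ganglioside synthase, averaged 89.7 ± 3.66 CPM in MI and 89.7 ± 9.32 CPM in Sham. Lysosomal breakdown of sphingolipids had 6 positive and 4 negative values with a median of 0.00, and Psap, the precursor of the saposin activators, averaged 1515 ± 74.1 CPM in MI and 1509 ± 93.1 CPM in Sham. Smpd1, the acid sphingomyelinase, had a log2 fold change of 0.05, and B4galt6, a lactosylceramide synthase, -0.02.

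Fatty acid elongation and desaturation, without the members, had 8 positive and 6 negative values with a median of 0.05. Its most abundant genes were Tecr, the last enzyme of the elongation cycle, with a log2 fold change of 0.09 (SE 0.07), and Hacd3, a dehydratase of that cycle, with -0.01 (SE 0.04). Elovl6 and Fads6 were the 2 of its genes with an unadjusted p under 0.05; they are outside the naming rule and were picked after their values were seen. Elovl6, which extends palmitate, had a log2 fold change of 0.21 (SE 0.08, edgeR adjusted p = 0.597), and Fads6 0.29 (SE 0.10, edgeR adjusted p = 0.597). The authors' deposited table also lists Fads6 as higher, with a log2 fold change of 0.25 and an adjusted p of 0.0223.

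The supply of acetyl groups and fatty acid synthesis had 11 positive and 2 negative values with a median of 0.07. Nat8l makes N-acetylaspartate in neurons, the substrate that Aspa splits. It averaged 421 ± 22.2 CPM in MI and 373.0 ± 26.7 CPM in Sham, a log2 fold change of 0.17 (SE 0.06, edgeR adjusted p = 0.597). With Y-linked counts alone it was the 1 pathway gene of 78 that passed, just under the threshold, at 0.32 (edgeR adjusted p = 0.0499), and with Xist the value was 0.03. The interaction for Nat8l was 0.29, with an adjusted p of 0.400 in edgeR and 0.0269 in DESeq2. Acsl3, an acyl-CoA synthetase, had a log2 fold change of 0.13 (SE 0.07, edgeR adjusted p = 0.690), and the authors' deposited table lists it as higher with 0.15 and an adjusted p of 0.00713.

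Ether lipid synthesis, which supplies the plasmalogens of myelin, had 3 positive and 6 negative values with a median of -0.04. Gnpat, its first acyltransferase, had 0.02 (SE 0.04) and Far1, which makes the fatty alcohol, -0.07 (SE 0.07). Peroxisomal oxidation of very long chain fatty acids had 5 positive and 2 negative values with a median of 0.02. Slc27a4, a fatty acid transport protein, had 0.08 (SE 0.05), and Hsd17b4, the peroxisomal bifunctional enzyme, 0.02 (SE 0.04).

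**Figure D5:**
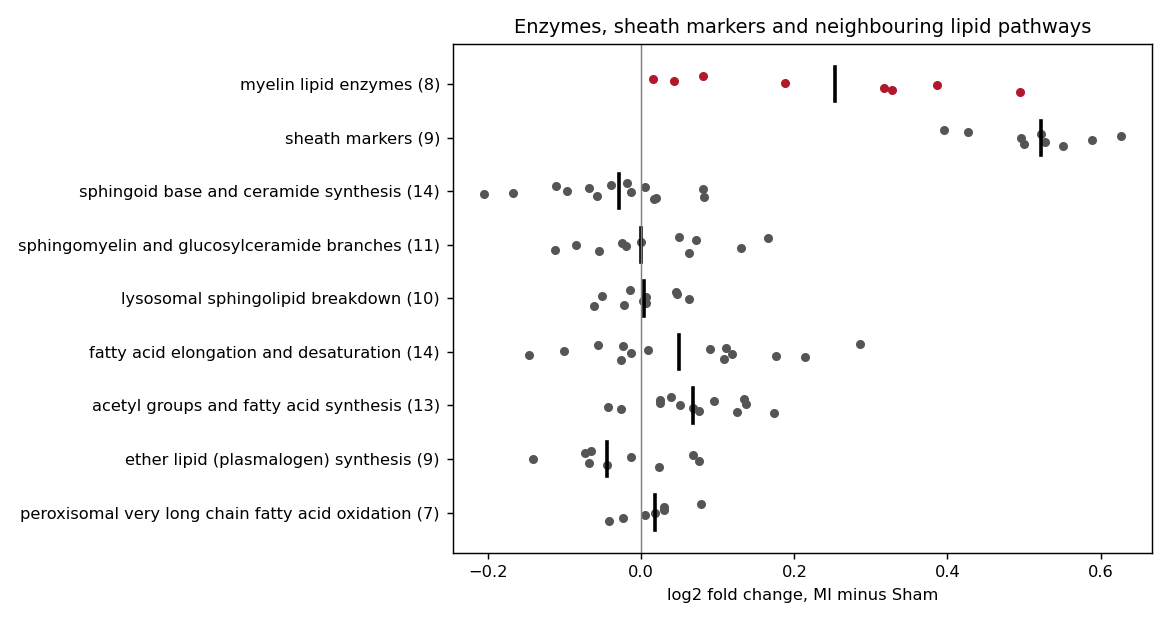
Log2 fold change, MI minus Sham, of each gene in the 8 enzymes (red), 9 sheath markers and 7 lipid pathway lists (grey), with the median as a black bar and the number of genes in brackets. The sheath markers lie at 0.40 to 0.63, the enzymes at 0.02 to 0.49, and the 78 pathway genes at -0.20 to 0.29.

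The genes whose profile was most like that of the mean of Fa2h, Ugt8a, Gal3st1 and Aspa were found from deviations of log2 CPM from the group means over the 12 libraries. They were Ttll5 (Pearson's r 0.97, Spearman's rho 0.94), Galnt6 (0.97 and 0.96), Hapln2 (0.96 and 0.94), Qdpr (0.96 and 0.94) and Tmem63a (0.95 and 0.90). Without Sham 2 and Sham 4, the libraries farthest from the median, r was 0.88 to 0.92 for these 5. Of the 5, Hapln2, a link protein of the matrix at nodes of Ranvier, had the highest log2 fold change, 0.62 (SE 0.18, edgeR adjusted p = 0.597). For the mean of Cers2, Elovl1, Elovl5 and Scd2 the most alike were Adora2a (r 0.95), Hepacam (0.92), Slc25a33 (0.91), Anks1 (0.91) and Cd81 (0.91), and without MI 1 and Sham 6 r was 0.69 to 0.90. Spearman's rho for these 5 ran from 0.75 (Cd81) to 0.94 (Adora2a). Adora2a was at a low level, with a mean of 1.63 CPM. None of these 10 is in the sheath marker list, and the 2 groups of 5 share no gene. The sheath marker list holds only 9 genes, so absence from it does not place a gene outside oligodendrocytes. Here too the group means were not taken by library set, so differences between the sets are part of the profiles.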

How the data were processed

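The authors deposited raw counts of reads for each Ensembl gene in 6 MI and 6 Sham libraries. The submitters' processing notes name FastQC 0.11.5, STAR 2.5.2b, Subread 1.5.1, featureCounts and mm10, with no order or settings. The authors also deposited 2 gene tables that hold an adjusted p-value, a log2 fold change and log2 values per library, and no label or header says how they were made.

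Symbols, coordinates and exon lengths came from GENCODE M21 on mm10 (48349 of 48709 IDs), and promoters from RefSeq. Genes passing filterByExpr (16829) were scaled by TMM and compared by the two-sided quasi-likelihood F test of edgeR 4.0.16 (R 4.3.3) with robust dispersion, no covariates, Benjamini-Hochberg adjustment over all tested genes and a threshold of 0.05. The difference between library sets was the interaction term of group and set. DESeq2 1.42.0, limma 3.58.1 (voom) and sva 3.50.0 gave alternatives. CPM used the TMM-scaled library size, RPKM the summed exon length, and log2 CPM a prior count of 2. Log2 fold changes are MI minus Sham. The procedure was tested on simulated data.

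The enzymes, pathway lists and markers were chosen with earlier results of these data known. Named were all 8 enzymes, the 2 genes highest per length in each pathway list and any list gene past the adjusted threshold in the main test or in DESeq2, the 5 genes most like each group of enzymes, and the first 2 genes of each marker list. All 138 genes of the lists and enzymes were matched, 1 through an older name, and some genes of the lists were left out and are not reported here. Libraries of a group differed by more than counting noise (chi-square per degree of freedom 6.22 to 78.2 over 30 pairs), so none was merged.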

Additional observations from a re-analysis of the deposited data

Results flagged for a closer look

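Of 44 groups of 6 libraries examined, 0 held a library far from the others by Dixon's criterion, where chance gives about 1 in 20 groups. The 22 genes examined were the enzymes and the pathway genes named by rule. The marker genes and the genes most like the enzymes were not examined in this way. Among the markers, the dentate granule neuron sum was 744 CPM in Sham 6, against at most 279 CPM in any other library.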

How the results depend on the processing

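In all 12 libraries, 0 enzymes and 0 genes passed edgeR's test under RLE, upper quartile and library total scaling, without a filter or with at least 50 counts in 6 libraries, with the library set as a covariate, with 1 surrogate variable, without Sham 1 and Sham 6, and without each library in turn. DESeq2 called 16 genes, and the libraries with Y-linked counts alone gave 211 genes, 3 enzymes and 1 pathway gene. Leaving out 1 of those 6 libraries, chosen after seeing the data, gave 11 (without Sham 2) to 485 (without Sham 3) genes and 0 to 2 enzymes. The enzymes' median log2 fold change was 0.43 with Y-linked counts alone, 0.047 with Xist alone, and 0.20 to 0.31 without each library. Of 200 values of single enzymes, 190 kept their direction and side of the threshold and 3 passed it newly. The 7 that changed sign were small: Elovl5 with Xist alone (-0.038), with 1 surrogate variable (-0.0035) and without MI 1, MI 2, Sham 1 or Sham 2 (its range without each library was -0.013 to 0.054), and Scd2 with Xist alone (-0.022). For the difference between library sets, 81 genes and 2 enzymes passed in DESeq2, 0 genes with at least 50 counts in 6 libraries, and 0 to 61 genes without each library (14 without Sham 3, 61 without Sham 4); Elovl1 ran from -0.12 to 0.16 in that test, with sign changes without MI 1 and Sham 6. The cause was not tested.

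Labels number the libraries 1 to 6 in both groups. Same-numbered libraries had correlations of -0.35 to 0.40, and 3 of 6 pairs exceeded 0.1. MI 1 and Sham 1 (0.40) were each the other's best partner. The pairs numbered 2 and 4, whose libraries differ in library set, had -0.35 and -0.32. These values cannot tell whether same-numbered libraries share more than a number. With the replicate block, 0 genes and 0 enzymes passed, Fa2h had 0.52, and the median of the 8 was 0.25. Gal3st1, with 163 to 316 counts a library, is the least precisely counted enzyme.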
